A study of Mus musculus with 6 samples.

Results

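The 49 genes described here encode the machinery that licenses replication origins, activates the replicative helicase and copies DNA at the fork. They were taken from a named list of these genes and matched by Ensembl identifier to mouse gene symbols in the deposited count table. All 49 were found among the 24190 genes listed, and all 49 were among the 14692 genes that passed a filter on low counts. RNA was sequenced from the parental AKP MTO54 line, a single mouse tumor organoid (MTO) line of colorectal cancer. The 3 control cultures received complete stem cell medium. The other 3 cultures received Folfiri in the same medium, which consisted of 100 nM SN38 and 50 μg/μl 5FU (concentration units are those of the labels). Both groups were of this 1 line, were seeded as dissociated single cells, received fresh medium 2 days after seeding and were kept in it for 2 days. 5FU is a fluoropyrimidine that disturbs thymidylate synthesis, and SN38, the active form of irinotecan, inhibits topoisomerase I. The comparison asked how each step of the replication machinery stood in organoids after chemotherapy relative to untreated organoids.

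Replication is set up in separate steps of the cell cycle. In late mitosis and G1, the origin recognition complex (ORC), Cdc6 and Cdt1 load the hexameric MCM2-7 helicase onto DNA, which is called licensing, and geminin (Gmnn) binds Cdt1 to prevent a second round of loading. At the start of S phase, the Cdc7 kinase with its activator Dbf4, Treslin (Ticrr), Mcm10, Cdc45 and the GINS complex turn the loaded helicase into an active one, after which polymerases alpha, delta and epsilon, the PCNA clamp, its loader RFC and the single-strand binding protein RPA copy the DNA. Many of these genes are known targets of E2F transcription factors, and the proliferating cells at the base of the intestinal crypt, as well as tumor cells derived from them, express them.

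After Folfiri, genes for loading the helicase, for polymerases delta and epsilon, for RPA and for protecting the fork were mostly higher. Among these, the ORC, the loaders with their inhibitor, MCM2-7 and RPA each held 1 gene called lower. Genes for firing origins, priming, the clamp with its loader and Okazaki fragment maturation were mixed. In none of these mixed steps were more genes called higher than lower. The levels below are TMM-normalized CPM, which are counts scaled to library size, and fold changes are from edgeR's quasi-likelihood test with Benjamini-Hochberg adjustment over all 14692 tested genes, called at an adjusted p under 0.05. Of the 49 genes, 30 were called higher, 14 were called lower and 5 were not called. Over all tested genes 40.3% were called higher and 38.8% lower, so 79.1% were called in one direction or the other. The number of replication genes called was thus near this high background, while the split between directions leaned to higher levels. The median log2 fold change of the 49 genes was 0.42, beside 0.021 for all tested genes. With no filter on low counts these medians were 0.40 and 0.28, over 24190 genes. In 44 of the 49 genes the 3 Folfiri values lay apart from the 3 control values, as they did in 81.4% of all tested genes. The change was more than 2-fold for 11 genes that rose and 3 that fell, and Cdc6 stood at the limit with 2.00-fold. By absolute log2 fold change, Cdc6 stood at percentile 63.6 of all tested genes. Changes beyond 2-fold were therefore also common over all tested genes.

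**Figure D1:**
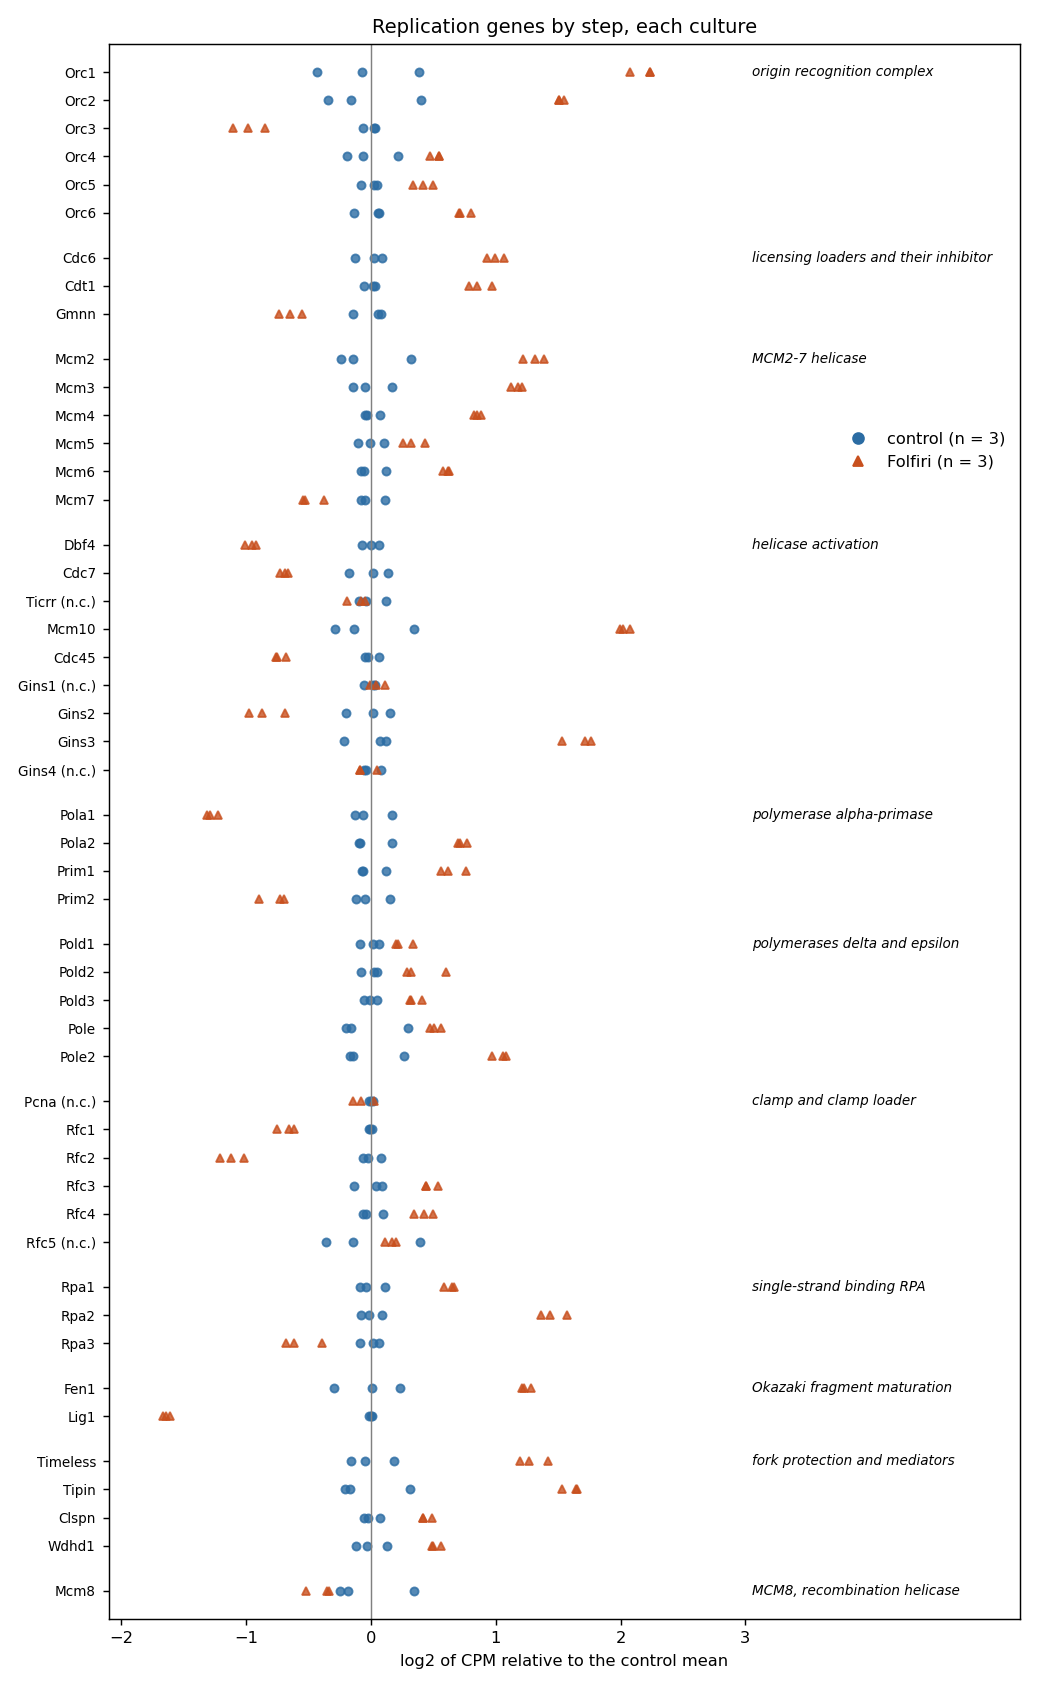
Level of each of the 49 replication genes in every culture, as log2 of its CPM relative to the mean of the 3 controls (horizontal axis), with genes grouped by step from top to bottom, controls as circles, Folfiri as triangles and genes that were not called marked n.c. Orc1 and Mcm10 lie farthest to the right and Lig1 farthest to the left, and the plotted genes of polymerases delta and epsilon and of fork protection lie to the right of their controls.

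The 6 libraries held between 22103591 and 30098210 counts, and the replication genes between 66 and 12054 counts each per library. Scaling mattered for small changes, since TMM factors ranged from 0.880 to 0.966 in the control libraries and were 1.10 or 1.11 in the treated libraries. When libraries were scaled by their total counts alone, the median log2 fold change over the 14692 genes moved to 0.30, and 33 replication genes were called higher and 12 lower, beside 49.8% and 28.9% of all tested genes. Control replicate 1 stood apart from the other controls. The chi-square per degree of freedom between libraries was 25.3 and 23.9 for control 1 against controls 2 and 3, and 4.03 between those. Among the treated libraries it was 13.3 and 12.8 for Folfiri 3 against Folfiri 1 and 2, and 3.76 between those, so Folfiri 3 also stood apart, to a lesser degree. In control 1, 34 of the 49 replication genes were above both other controls, as were 6418 of the 14692 tested genes, whereas 24 of 25 mitosis genes were below both. The replication genes took 0.332% of counts in control 1, 0.285% and 0.282% in controls 2 and 3, and 0.422%, 0.432% and 0.447% in the Folfiri libraries. In this summed share control 1 lay between the other controls and the treated group, whereas among single genes that fell, such as Mcm7 and Pola1, it could be the control farthest from the treated cultures. Without control 1, 31 replication genes were called higher and 13 lower, with a median log2 fold change of 0.44. In bulk RNA, fewer cells in a given phase and less RNA per cell cannot be told apart.

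The cultures were epithelial by their markers. The summed level of 8 epithelial markers was 5976 to 6945 CPM in controls and 4817 to 4991 CPM after Folfiri. Among 10 immune markers, Cd3e was at 0 in every library, and the sum was 21.8 to 26.4 CPM in controls and 22.5 to 23.5 CPM after Folfiri. Most of it was Cd68, a lysosomal protein, with 23.6 CPM in controls and 20.5 CPM after Folfiri, and the others together reached at most 1.04 and 2.58 CPM. Among 8 fibroblast markers, Lum was at 0 in every library, and the sum was 1.08 to 1.44 CPM in controls and 2.06 to 2.45 CPM after Folfiri. At these low levels the immune markers Ptprc and Adgre1 and the fibroblast markers Dcn and Pdgfra were called higher and Col1a1 was called lower. Of the epithelial markers, 1 was called higher, 5 lower and 2 not called, with the intestinal factor Cdx2 at a log2 fold change of -1.53 and the adhesion molecule Epcam at -0.94. The part of these markers in the values of the replication genes was not tested.

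The promoters of the replication genes often held E2F letters. RefSeq promoter windows of GRCm38.p6, covering 250 bases before to 50 bases after the start, were found for 40 of the 49 genes and searched on both strands for TTTGGCGC, TTTCGCGC, TTTCCCGC and TTTGCCGC. A match was present for 17 of the 40 genes (42.5%), against 704 of 27025 genes with a window (2.6%). It was found in 12 of 27 genes called higher, in 5 of 10 called lower and in 0 of 3 not called. These letters were therefore present among genes that moved in either direction. The windows of the replication genes had a median GC content of 61.3%, and all windows 52.7%. The letters TTTGAA, the core of the cell cycle homology region of G2/M genes, did not overlap an E2F match in any of these genes and were found for 7 of 40 genes (17.5%) and for 20.2% of all genes. They were found in 4 of 27 genes called higher and in 3 of 10 called lower, which were Dbf4, Cdc7 and Cdc45. The sequences below are upstream of the RefSeq start and outside annotated exons, with E2F letters in capitals, and show genes of the loader, the helicase and the primase complex that rose (Cdc6, Mcm5, Mcm6) or fell (Pola1). They lie at chr11:98907982-98908150 on the plus strand (Cdc6), chr8:75109339-75109508 on the plus strand (Mcm5), chr1:128359706-128359875 on the minus strand (Mcm6) and chrX:93632156-93632325 on the minus strand (Pola1), and each is written on the strand of its gene. The Cdc6 sequence lies within the GENCODE span of the gene, which begins upstream of the RefSeq start, at 98907801.
Cdc6: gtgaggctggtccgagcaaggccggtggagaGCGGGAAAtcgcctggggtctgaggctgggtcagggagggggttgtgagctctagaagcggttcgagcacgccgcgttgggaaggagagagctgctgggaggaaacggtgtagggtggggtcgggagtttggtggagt
Mcm5: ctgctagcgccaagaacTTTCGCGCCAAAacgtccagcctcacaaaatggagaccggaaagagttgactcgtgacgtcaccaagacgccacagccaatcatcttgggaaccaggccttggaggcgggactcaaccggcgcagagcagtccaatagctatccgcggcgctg
Mcm6: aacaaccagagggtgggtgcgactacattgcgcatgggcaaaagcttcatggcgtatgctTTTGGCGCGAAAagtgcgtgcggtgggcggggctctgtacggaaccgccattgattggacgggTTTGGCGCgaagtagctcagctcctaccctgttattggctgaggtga
Pola1: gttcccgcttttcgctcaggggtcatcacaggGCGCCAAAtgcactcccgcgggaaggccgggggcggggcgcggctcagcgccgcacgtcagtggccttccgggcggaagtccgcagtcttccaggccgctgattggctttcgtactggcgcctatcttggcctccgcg
The match began 138 bases upstream of the start in both Cdc6 and Pola1, although the former rose and the latter fell. Mcm5 held 2 overlapping matches and Mcm6 held 3, of which 2 overlapped.

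The origin recognition complex, the platform that marks origins, rose in 5 of its 6 subunits, with a median log2 fold change of 0.63. Orc1, an ATPase of the complex that lies on chromosome 4 of GRCm38 from 108579423 to 108614833, was at 5.98, 4.36 and 3.39 CPM in controls 1, 2 and 3 and at 19.4, 21.5 and 21.6 CPM in Folfiri cultures 1, 2 and 3. The groups were far apart, and Orc1 had the highest fold change of the 49 genes, 2.16 on the log2 scale (SE 0.17, adjusted p = 7.09e-07). Orc3, a core subunit on chromosome 4 from 34570796 to 34614944, was the subunit that fell. It was at 39.3, 36.8 and 39.0 CPM in controls and at 21.4, 19.4 and 17.8 CPM after Folfiri. No value overlapped, and the log2 fold change was -0.97 (SE 0.089, adjusted p = 2.56e-06). Among the others, Orc2 rose from 15.9 ± 4.48 to 45.6 ± 0.675 CPM (SD, n = 3 each), although 29.8% of its exon bases are shared with Nif3l1 on the opposite strand. Orc6, which joins the other subunits less tightly, rose by 0.74 on the log2 scale. It shares 6.93% of its exon bases with Vps35 on the opposite strand. Vps35 had 57276 counts in all against 9382 for Orc6, so the level of Orc6 is uncertain. Orc4 and Orc5 rose by 0.53 and 0.42. Per kilobase of exon, Orc1 was the scarcest subunit in controls with 1.32 CPM per kb and Orc6 the most abundant with 16.5 CPM per kb. After Folfiri, the scarcest was Orc3 with 3.21 CPM per kb, below Orc1 with 5.99 CPM per kb.

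Both helicase loaders rose and their inhibitor fell. Cdc6, the ATPase that joins ORC to recruit the helicase, was at 24.9, 21.4 and 23.9 CPM in controls and at 44.5, 46.7 and 49.1 CPM after Folfiri. This was a 2.00-fold rise without overlap (SE of the log2 fold change 0.086, adjusted p = 1.57e-06). Cdt1, which brings MCM2-7 to ORC and Cdc6, lies on chromosome 8 from 122568015 to 122573554. It was at 82.0, 87.5 and 86.4 CPM in controls and at 147, 154 and 167 CPM after Folfiri, again without overlap (log2 fold change 0.87, SE 0.073, adjusted p = 1.29e-06). Gmnn, the inhibitor of Cdt1 on chromosome 13 from 24751845 to 24761923, was at 88.1, 101 and 103 CPM in controls and at 58.6, 62.3 and 66.4 CPM after Folfiri. Its highest treated culture was below its lowest control, and the log2 fold change was -0.64 (SE 0.084, adjusted p = 3.71e-05), or -0.36 when libraries were scaled by total counts (adjusted p = 0.00116).

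The ratio of Cdt1 to Gmnn counts turned from below 1 to above 1. A ratio within a library does not depend on how libraries are scaled. On the log2 scale it was -0.10, -0.21 and -0.25 in controls and 1.33, 1.31 and 1.33 after Folfiri. The difference of 1.51 corresponds to a 2.85-fold shift, and the exact permutation test (two-sided) gave p = 0.1, the smallest p possible with 3 against 3, or 0.109 after Benjamini-Hochberg adjustment over the 12 ratios tested. Cdc6 to Gmnn shifted by 1.64 with the same exact p.

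The MCM2-7 helicase rose in 5 of its 6 subunits, with a median log2 fold change of 0.73, but Mcm7 fell. The 6 proteins assemble in equal numbers into a ring around DNA. Mcm2 was at 109, 79.1 and 73.7 CPM in controls and at 203, 217 and 229 CPM after Folfiri (log2 fold change 1.31, SE 0.13, adjusted p = 4.54e-06). Mcm3 was at 145, 126 and 117 CPM in controls and at 282, 293 and 299 CPM after Folfiri (log2 fold change 1.17, SE 0.087, adjusted p = 5.54e-07). Both were more than 2-fold higher, with control 1 the highest of the controls. Mcm4 was at 115, 106 and 107 CPM in controls and at 197, 201 and 193 CPM after Folfiri (log2 fold change 0.85, SE 0.068, adjusted p = 8.71e-07). Mcm6 was at 147, 129 and 128 CPM in controls and at 201, 206 and 207 CPM after Folfiri (log2 fold change 0.61, SE 0.075, adjusted p = 2.38e-05). These were intermediate rises with clearly separate groups. Mcm5 was at 171, 158 and 148 CPM in controls and at 190.0, 199 and 215 CPM after Folfiri (log2 fold change 0.34, SE 0.080, adjusted p = 0.00235). Its rise was the smallest of the 5, and its call was lost after correction for genomic span (0.17, adjusted p = 0.0677). Mcm7, on chromosome 5 from 138164583 to 138172422, was at 285, 254 and 249 CPM in controls and at 181, 182 and 203 CPM after Folfiri. The log2 fold change of -0.48 (SE 0.081, adjusted p = 2.68e-04) kept its direction but not its call with scaling by total counts only (-0.21, adjusted p = 0.0695). The exons of Mcm7 hold the microRNA genes Mir25 and Mir93 and share 7.25% of their bases with Ap4m1 on the opposite strand.

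As a result, the make-up of the helicase transcripts shifted. Per kilobase of exon, Mcm7 was the most abundant subunit in controls with 28.9% ± 0.343 (SD, n = 3) of the summed Mcm2 to Mcm7 level, and its share was 14.2% ± 0.554 after Folfiri. Mcm3 took the first place, with a share of 16.8% ± 0.475 in controls and 25.9% ± 0.175 after Folfiri. Mcm2 remained the scarcest subunit on this measure, with shares of 6.06% ± 0.774 and 10.3% ± 0.280. Its rank depends on the exon length used, which was 6.96 kb for Mcm2 and 3.59 to 4.67 kb for the others. Without division by length, Mcm2 was the lowest subunit in controls with 87.2 CPM. After Folfiri, its 216 CPM stood below Mcm3 only, with 292 CPM. Mcm5 moved from 19.4% ± 0.459 to 16.8% ± 0.504, Mcm4 from 14.8% ± 0.619 to 18.3% ± 0.828 and Mcm6 from 14.03% ± 0.155 to 14.6% ± 0.267. On this measure, the spread between the highest and the lowest subunit was therefore narrower after Folfiri. In level, Mcm7 went from 59.3 to 42.6 CPM per kb, Mcm3 from 34.5 to 77.7 CPM per kb and Mcm2 from 12.5 to 31.0 CPM per kb.

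**Figure D2:**
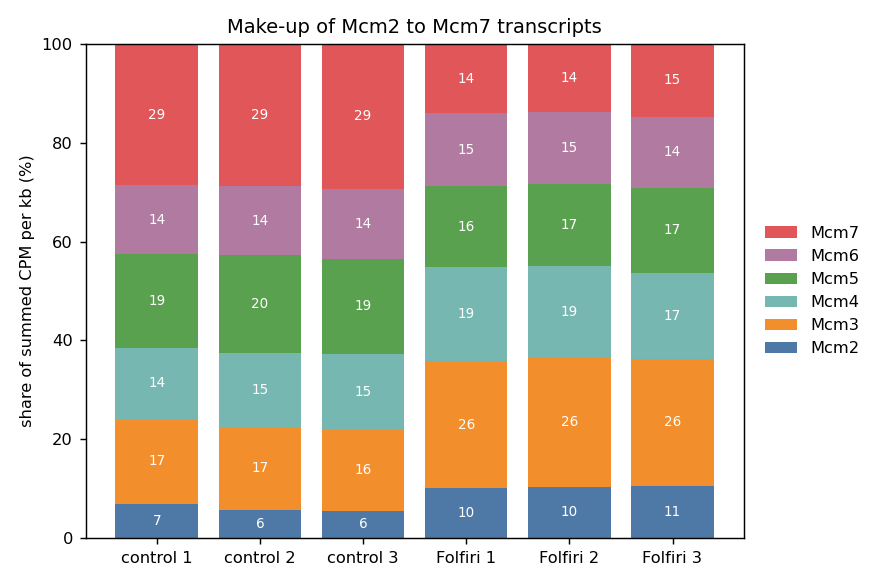
Share of each subunit in the summed Mcm2 to Mcm7 level (CPM per kb of exon, vertical axis, percent) in each of the 6 cultures (bars). Mcm7 holds 29% in every control and 14 to 15% in every Folfiri culture, and the 3 bars of a group look nearly alike.

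Genes that activate the loaded helicase did not move together. Of 9, 2 rose, 4 fell and 3 were not called, with a median log2 fold change of -0.10. Mcm10, which is needed for the helicase to unwind DNA and lies on chromosome 2 from 4989714 to 5012791, was at 32.6, 23.5 and 21.0 CPM in controls and at 103, 108 and 104 CPM after Folfiri. It rose 4.07-fold without overlap (log2 fold change 2.02, SE 0.14, adjusted p = 2.91e-07). Dbf4, the activating subunit of the Cdc7 kinase on chromosome 5 from 8396973 to 8422716, was at 174, 183 and 191 CPM in controls and at 94.1, 96.6 and 90.5 CPM after Folfiri. Its log2 fold change was -0.96 (SE 0.069, adjusted p = 4.36e-07), and the kinase Cdc7 itself fell from 40.6 ± 4.40 to 25.1 ± 0.581 CPM (SD, n = 3 each), so both subunits of the kinase that triggers firing were lower. Cdc45, which joins MCM2-7 and GINS in the active helicase, fell from 48.9 ± 2.14 to 29.4 ± 0.934 CPM and shares 5.96% of its exon bases with Ufd1 on the opposite strand. The log2 fold changes of Cdc7 and Cdc45 were -0.69 and -0.73. With scaling by total counts only they were -0.41 and -0.45 and were still called.

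The 4 GINS subunits, which form 1 complex in equal numbers, did not move together. Gins3 rose from 4.72 ± 0.581 to 15.1 ± 1.25 CPM (log2 fold change 1.66, adjusted p = 7.12e-07) and Gins2 fell from 18.0 ± 2.20 to 10.1 ± 1.04 CPM (log2 fold change -0.84, adjusted p = 8.29e-05). The Gins2 value is uncertain, because 67.3% of its exon bases are shared with Gse1 on the opposite strand while whether counting used strand is not given in the sources used here. Gins1 and Gins4 were not called, with 95% confidence intervals of the log2 fold change from -0.16 to 0.26 and from -0.22 to 0.14. Ticrr, which helps to recruit Cdc45, was not called either, with an interval from -0.29 to 0.087. Under scaling by total counts only, Gins1 and Gins4 were called higher, at 0.33 and 0.23.

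In the polymerase alpha-primase complex, which lays down the primers, 1 subunit of each pair rose and the other fell. Pola1, the catalytic polymerase subunit, lies on the X chromosome from 93304767 to 93632155 and was at 75.1, 61.1 and 64.0 CPM in controls and at 26.9, 28.5 and 27.4 CPM after Folfiri. Its log2 fold change was -1.27 (SE 0.092, adjusted p = 4.48e-07). Its partner Pola2, on chromosome 19 from 5940542 to 5964202, was at 49.4, 41.2 and 41.3 CPM in controls and at 71.6, 72.3 and 74.9 CPM after Folfiri, and its log2 fold change was 0.73 (SE 0.087, adjusted p = 1.87e-05). Neither gene's groups overlapped. After correction for genomic span the fall of Pola1 was -0.56 on the log2 scale and was still called. The small primase subunit Prim1 rose from 27.7 ± 2.16 to 43.4 ± 3.24 CPM, whereas the large subunit Prim2 fell from 31.1 ± 3.08 to 18.3 ± 1.28 CPM (SD, n = 3 each). With the same correction the fall of Prim2 was -0.23 and missed the threshold (adjusted p = 0.0515).

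The 5 genes of polymerases delta and epsilon among the 49, whose products copy the lagging and the leading strand, rose. Of the further subunits, Pold4 of polymerase delta fell, with a log2 fold change of -3.17, while Pole3 and Pole4 of polymerase epsilon rose by 0.70 and 0.74. Pole2, the B subunit of polymerase epsilon, was at 18.8, 14.1 and 13.9 CPM in controls and at 30.6, 32.5 and 33.1 CPM after Folfiri (log2 fold change 1.03, SE 0.12, adjusted p = 1.38e-05). Pold1, the catalytic subunit of polymerase delta, was at 83.4, 92.7 and 89.7 CPM in controls and at 102, 103 and 112 CPM after Folfiri (log2 fold change 0.26, SE 0.073, adjusted p = 0.00764). The former rose 2.05-fold and the latter rose 1.20-fold, and the call of Pold1 was lost after correction for genomic span (0.069, adjusted p = 0.403). The accessory subunits Pold2 and Pold3 rose by 0.41 and 0.35 on the log2 scale, and the catalytic subunit Pole by 0.51.

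The clamp did not pass the threshold, and its loader was split. Pcna, the sliding clamp that holds polymerases on DNA, was the most abundant of the 49 genes per kilobase of exon, with 149.9 CPM per kb in controls and 143 CPM per kb after Folfiri. It was at 356, 360.2 and 363 CPM in controls and at 325, 340.0 and 366 CPM after Folfiri. The groups overlapped and the 95% confidence interval of the log2 fold change was -0.23 to 0.097, although with scaling by total counts only it was called higher at 0.21 (adjusted p = 0.0148). In the clamp loader, Rfc2, a small subunit on chromosome 5 from 134581366 to 134601805, was at 71.6, 66.4 and 64.8 CPM in controls and at 31.1, 29.2 and 33.4 CPM after Folfiri. It fell by 1.11 on the log2 scale (SE 0.082, adjusted p = 5.00e-07), with 15.1% of its exon bases shared with Lat2 on the opposite strand. Rfc3, another small subunit, was at 41.0, 46.3 and 47.9 CPM in controls and at 61.2, 61.1 and 65.4 CPM after Folfiri (log2 fold change 0.48, SE 0.082, adjusted p = 2.92e-04). The large subunit Rfc1 fell by 0.67 on the log2 scale and Rfc4 rose by 0.42, or by 0.21 after correction for genomic span. Rfc4 shares 12.7% of its exon bases with Eif4a2 on the opposite strand, which had 101121 counts in all against 4393 for Rfc4, so its value is uncertain. Rfc5 was not called. It shares 10.7% of its exon bases with Wsb2 on the opposite strand, which had 21693 counts in all against 6565 for Rfc5, so its value is uncertain too. Its controls were at 48.1, 33.2 and 28.5 CPM, around the treated values of 41.3, 39.6 and 42.1 CPM, and without control replicate 1 it was called higher with a log2 fold change of 0.41 (adjusted p = 3.99e-04).

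Of the 3 subunits of RPA, which coats single-stranded DNA, 2 rose and the smallest fell. Rpa2, on chromosome 4 from 132768332 to 132778752, was at 30.7, 27.3 and 28.5 CPM in controls and at 74.0, 77.9 and 85.5 CPM after Folfiri (log2 fold change 1.46, SE 0.085, adjusted p = 1.11e-07). Rpa3, on chromosome 6 from 8255936 to 8259173, was at 28.3, 31.3 and 30.3 CPM in controls and at 19.6, 18.8 and 22.8 CPM after Folfiri (log2 fold change -0.56, SE 0.097, adjusted p = 3.12e-04). The groups of both genes were apart. Rpa1, the large DNA-binding subunit, rose from 87.8 ± 6.39 to 136 ± 3.87 CPM (SD, n = 3 each). Per kilobase of exon, Rpa3 was the most abundant RPA subunit in controls with 26.4 CPM per kb and the least abundant after Folfiri with 17.9 CPM per kb.

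Lig1, the ligase that joins Okazaki fragments, had the deepest fall of the 49 genes. It lies on chromosome 7 from 13277283 to 13311433 and was at 148, 151 and 149.8 CPM in controls and at 49.03, 47.9 and 47.1 CPM after Folfiri. The replicates of each group were within a few CPM of each other, and the level after Folfiri was 0.321 times that of controls (log2 fold change -1.64, SE 0.065, adjusted p = 9.28e-09). Fen1, the nuclease that trims the flaps before ligation, was at 4.32, 2.999 and 3.70 CPM in controls and at 8.92, 8.52 and 8.59 CPM after Folfiri (log2 fold change 1.24, SE 0.15, adjusted p = 1.81e-05). Its level is uncertain, since 78.8% of its exon bases are shared with the antisense gene Gm10143, which had 0 counts in every library, and 5.37% with Tmem258 on the opposite strand, which had 8417 counts in all against 1080 for Fen1.

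All 4 fork protection and mediator genes rose. Tipin, which with Timeless holds the helicase and polymerases together at the fork, lies on chromosome 9 from 64281581 to 64305424 and was at 40.0, 28.6 and 27.8 CPM in controls and at 92.7, 100.5 and 100.8 CPM after Folfiri. Every treated culture was more than 2-fold above every control (log2 fold change 1.61, SE 0.13, adjusted p = 9.04e-07). Timeless rose from 36.2 ± 4.41 to 89.0 ± 7.25 CPM (SD, n = 3 each). Clspn, the mediator that passes the checkpoint signal to Chk1, was at 33.4, 30.7 and 31.4 CPM in controls and at 42.6, 42.5 and 44.7 CPM after Folfiri (log2 fold change 0.44, SE 0.076, adjusted p = 2.71e-04). Wdhd1, which couples the helicase to polymerase alpha, rose by 0.52 on the log2 scale.

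Mcm8, an MCM relative that acts in homologous recombination rather than licensing, was at 17.2, 11.4 and 11.9 CPM in controls and at 9.42, 10.7 and 10.6 CPM after Folfiri. Its log2 fold change of -0.40 (SE 0.16, adjusted p = 0.0342) rested on control replicate 1, without which it was -0.18 and was not called (adjusted p = 0.101). The call was also lost when any 1 of the 3 Folfiri replicates was left out, with adjusted p between 0.0644 and 0.114.

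Pairs of replication genes, some of them subunits of the same complex, were also compared as ratios within each library. For 11 of the 12 ratios tested the groups did not overlap and the exact permutation p was 0.1, the smallest possible, so that none could pass the threshold. Single genes did not overlap in 81.4% of all those tested, and the share for other pairs of genes was not computed. Orc1 to Orc2 shifted by 0.67 on the log2 scale and Orc6 to Orc2 by -0.81. In the latter, control 1 (1.02) lay between the other controls (1.59 and 1.58) and the treated cultures (0.56 to 0.62). Rfc3 to Rfc1 shifted by 1.15 and Rpa3 to Rpa1 by -1.20. The ratios of Mcm10 and Mcm8 to Mcm2 moved apart, by 0.73 and -1.70. Pole2 to Pole shifted by 0.52, and smaller shifts were found for Timeless to Tipin (-0.33) and Dbf4 to Cdc7 (-0.27). Pold3 to Pold1 shifted by 0.092 with overlapping groups (exact permutation p = 0.3).

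**Figure D3:**
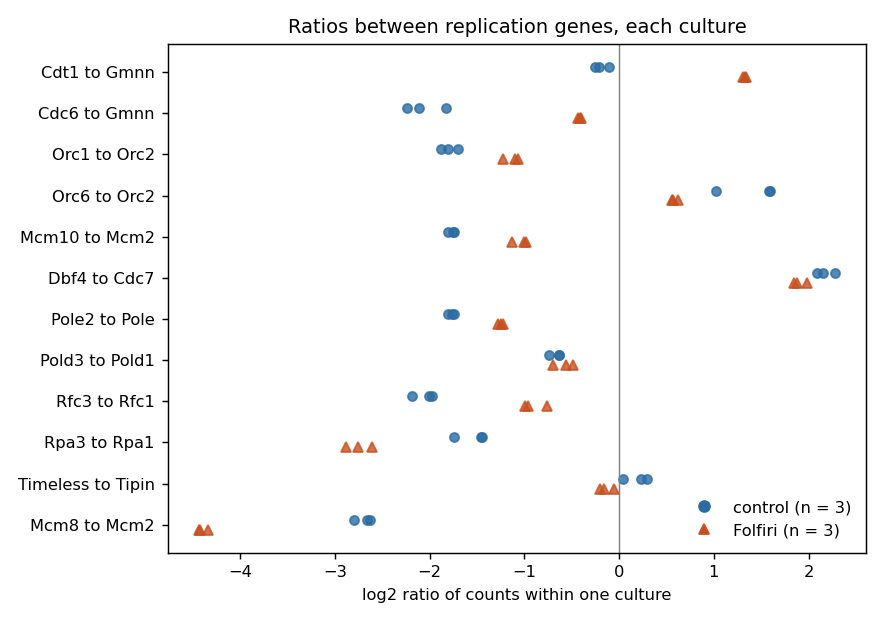
Log2 ratio of the counts of pairs of replication genes within each culture (horizontal axis), with controls as circles and Folfiri as triangles. The Cdt1 to Gmnn ratio lies below 0 in the 3 controls and above 1 in the 3 Folfiri cultures, and only the Pold3 to Pold1 values overlap.

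Genes used in mitosis were, in contrast, nearly all lower. Of 25 mitosis genes, 24 were called lower, 0 higher and Birc5 was not called, with a median log2 fold change of -0.78. Ccnb2, a B-type cyclin, fell from 231 ± 24.5 to 42.8 ± 2.57 CPM (SD, n = 3 each), Cenpa, the centromeric histone, from 339 ± 60.3 to 105 ± 5.41 CPM and the checkpoint kinase Bub1b from 245 ± 28.4 to 94.8 ± 1.17 CPM. Mki67, a marker of cycling cells, fell by 1.58 on the log2 scale (adjusted p = 1.72e-07). The mitosis genes took 0.397%, 0.443% and 0.450% of counts in controls and 0.282%, 0.291% and 0.283% after Folfiri, so this share fell while that of the replication genes rose.

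**Figure D4:**
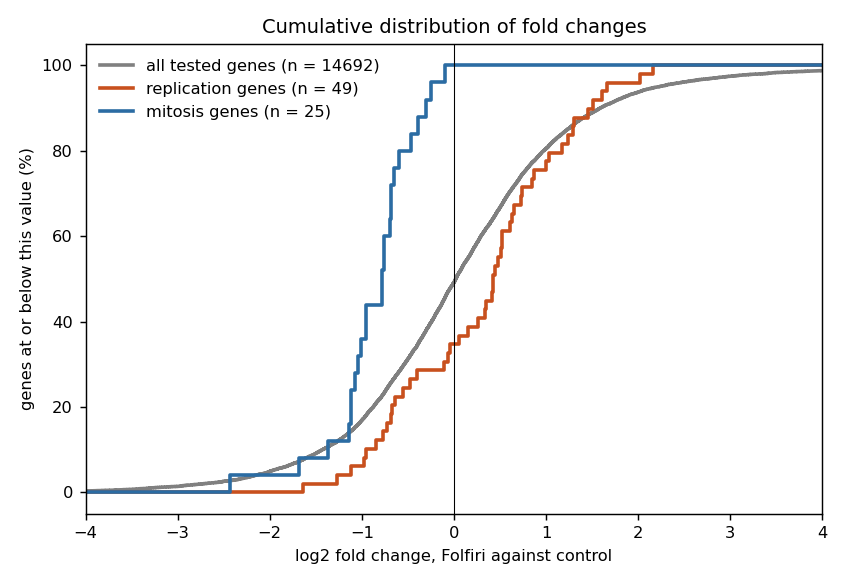
Percent of genes (vertical axis) at or below a given log2 fold change after Folfiri (horizontal axis) for all 14692 tested genes, the 49 replication genes and 25 mitosis genes. The curve of the replication genes lies to the right of that of all genes around its median of 0.42, and that of the mitosis genes lies to the left of 0 throughout.

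A further 32 replication factors outside the 49 leaned the same way, with 18 higher, 6 lower and 8 not called and a median log2 fold change of 0.38. Over all tested genes 40.3% were called higher and 38.8% lower. Like the 49, these factors were chosen with earlier results of these data known. Recql4, a helicase used at origin firing, rose from 11.2 ± 1.10 to 33.4 ± 2.82 CPM. The chromatin remodeler Hells rose from 77.0 ± 17.2 to 223 ± 9.34 CPM, and Supt16, a subunit of the histone chaperone FACT, from 80.5 ± 10.7 to 168 ± 9.95 CPM (SD, n = 3 each). The deepest fall was that of Pold4, the small subunit of polymerase delta, from 46.0 ± 7.06 to 5.12 ± 0.643 CPM (log2 fold change -3.17, adjusted p = 1.89e-08), in contrast to the rise of Pold1, Pold2 and Pold3. Rnaseh2c, a subunit of the RNase H2 that removes ribonucleotides, and the ORC-associated Lrwd1 both fell by 0.92 on the log2 scale.

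Among 18 genes for E2F factors, their DP partners and pocket proteins with the complexes they form, 9 were higher, 7 lower and 2 not called, with a median log2 fold change of 0.25. Both counts were near the background of 40.3% higher and 38.8% lower over all tested genes. E2f7, an atypical repressor, rose by 1.11 on the log2 scale, E2f4, a factor that acts with pocket proteins, by 0.85 and the activator E2f3 by 0.85. Rb1, the pocket protein that holds activator E2Fs in check, fell from 24.5 ± 0.845 to 6.10 ± 0.859 CPM (log2 fold change -2.01, adjusted p = 1.12e-07). E2f5 fell by 1.02 and the pocket protein gene Rbl2 by 0.61.

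Over all tested genes, the change varied with the genomic span of the gene, though not in a straight line. The 1643 genes spanning over 100 kb had a median log2 fold change of -0.40, with 23.5% called higher and 55.0% lower. The 4416 genes of 10 to 30 kb had a median of 0.27, with 50.1% higher and 29.4% lower. Among the replication genes, 2 span over 100 kb, Pola1 with 327 kb and Prim2 with 216 kb, and both fell. Of the 25 replication genes of 10 to 30 kb, 16 rose and 6 fell, of the 14 of 30 to 100 kb, 9 rose and 4 fell, and of the 8 under 10 kb, 5 rose and 2 fell. Their medians were 0.61, 0.43 and 0.44. Over all tested genes, 41.3% were higher and 37.2% lower at 30 to 100 kb, with a median of 0.050, and 36.4% were higher and 43.2% lower under 10 kb, with a median of -0.13. Lig1 spans 34.2 kb and Rfc2 20.4 kb. Spearman's rho between span and log2 fold change was -0.15 over the 49 genes and -0.006 over 14687 tested genes with a span, given as a description over genes of the same libraries. After correction for the trend with span, 28 replication genes were called higher and 14 lower.

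**Figure D5:**
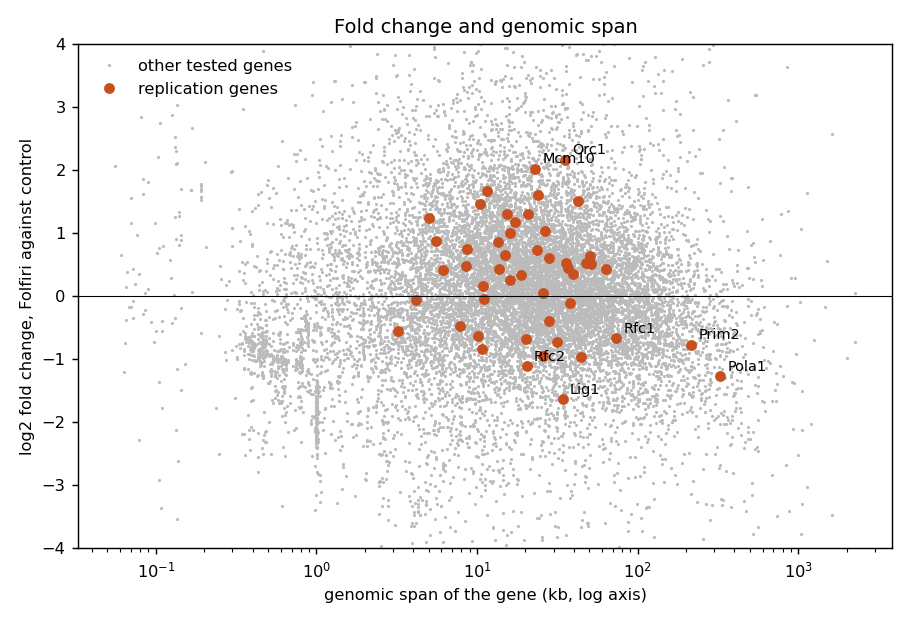
Log2 fold change after Folfiri (vertical axis) against the genomic span of the gene (kb, log axis) for the 49 replication genes (large points) and other tested genes (small points), where 182 genes above 4 and 53 below -4 lie outside the plotted range. Pola1 and Prim2 are the replication genes with the longest spans and both lie below 0, and Lig1 lies lowest at an intermediate span.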

How the data were processed

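RNA of 6 MTO54 cultures, 3 control and 3 Folfiri by the labels, was sequenced from poly(A)-selected NEBNext Ultra II libraries. The authors aligned reads with STAR 2.5.2 to the mouse genome (mm10, GRCm38) using the GENCODE vM25 annotation. After sorting with Sambamba, reads were assigned to genes with Rsubread, and the raw counts were deposited. The strand setting and the handling of reads with several positions are not given in the sources used here, so genes that share exons with others, as 19 of the 49 do, are less certain. A figure legend gives 4 days of treatment in place of the 2 days of the labels. The same legend calls the cultures biological replicates. Where cultures share a preparation, p-values measure only the spread between these samples.

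The members and all gene lists were chosen with earlier results of these data known. Symbols, positions, spans and union exon lengths were taken from GENCODE vM21 on the same build, and 24168 of 24190 identifiers matched. Counts were filtered with filterByExpr, TMM-normalized and fitted with edgeR 4.0.16 (quasi-likelihood test) in R 4.3.3. Depth was 22103591 to 30098210 counts, and the 95% confidence intervals are from the edgeR fit, so they include the spread between cultures. Levels are CPM, with SDs over 3 cultures. Union exon length counts the exons of all annotated transcripts, so levels per kilobase rank genes against each other only roughly. Named genes were all genes of the loaders and of MCM2-7, the called genes with the lowest and the highest fold change of each other step, and up to 3 called genes per direction of the other lists. The span correction used a loess trend (span 0.3) as an offset. DESeq2 1.42.0 and the other alternatives are described with their effects at the end. The script was tested on simulated data.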

Additional observations from a re-analysis of the deposited data

How the results depend on the processing

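Over 14 alternatives (other scalings, filters, DESeq2's Wald test, a replicate block, a span correction and each replicate left out), 28 to 33 replication genes were called higher and 12 to 14 lower, and 10630 to 12742 of all genes were called. The median of the 49 genes was 0.42, and 0.70 with scaling by total counts only, where that of all genes was 0.30. With no filter on low counts the 2 medians were 0.40 and 0.28, so the excess of the 49 genes was 0.12 in place of 0.40. Without 1 replicate, the median of the 49 genes ranged from 0.41 to 0.47. No called gene changed direction under any of them. Among the 5 genes that were not called, the sign turned with scaling by total counts for Ticrr (0.17), Gins4 (0.23) and Pcna (0.21), with upper quartile scaling for Gins4 (0.013), with the span correction for Gins1 (-0.070), Pcna (0.020) and Rfc5 (-0.050), when 1 replicate was left out for Gins4 (range -0.086 to 0.003, positive without control replicate 1) and without control replicate 3 for Rfc5 (0.000). Mcm8 also missed the threshold with total counts (-0.14) and with upper quartile scaling (-0.35), and Gins4 was called lower with the span correction (-0.25). The cause was not tested. With the replicate number as a block, 30 genes were higher and 14 lower, with a median of 0.42. No sign that the numbers pair the samples was seen. Deviations of same-numbered samples correlated at 0.039, -0.19 and 0.043, and those of other pairs at -0.15 to 0.20. With 3 cultures per group, these values cannot exclude a shared preparation. Counts of the 49 genes per library were 66 at the lowest, which limits precision for the scarcest genes.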
